A study of Rattus norvegicus with 12 samples.

Results

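The mitochondrial respiratory chain genes described here are 72 members of the 35716 gene names on the array. They were chosen by name: a probe counted when its gene name began with NDUFA, NDUFB, NDUFC, NDUFS, NDUFV, UQCR, COX4, COX5, COX6, COX7, COX8 or ATP5, or was SDHA, SDHB, SDHC, SDHD, CYC1 or CYCS. The rule took in 86 of 41012 probes, and the probe that was brightest over the 12 arrays stood for each gene. Brightness was the only measured value in the rule, and no difference between treatments entered it. Grouped by name, 69 members count as subunits or cytochrome c. Complex I has 30 of them, complex II 4, complex III 6, complex IV 15 and the ATP synthase 13, beside cytochrome c itself. The other 3 only share a prefix. They are NDUFAF1, a complex I assembly factor, COX4NB, now named EMC8, and ATP5S, now named DMAC2L. The 15 of complex IV include COX6C1, which RefSeq lists as a pseudogene, and COX6B, whose identity is unsure.

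The chain carries electrons from NADH and succinate to oxygen. Complexes I and II pass them to ubiquinone, complex III to cytochrome c and complex IV to oxygen, and the ATP synthase uses the proton gradient that complexes I, III and IV build. Most subunits are encoded in the nucleus, as all of these members are. Firing neurons spend much of their ATP on restoring ion gradients, and the content of cytochrome oxidase in neurons is a classical marker of their activity.

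The samples were primary cultures of dissociated hippocampal neurons taken from Sprague-Dawley rats at E18.5 and treated for 48 h at day 10 to 13 in vitro. Vehicle cultures (CTL) received 0.1% DMSO according to the labels, while the study's text names water as the vehicle for the arrays. Tetrodotoxin (TTX, 0.5 to 1 μM) blocks voltage-gated sodium channels and silences the cultures, and bicuculline (BC, 20 μM) blocks GABA-A receptors and makes them fire in bursts. Each group had 4 RNA samples, each on 1 one-colour Agilent array, and no source says whether separate cultures gave them. The p-values therefore reflect only how these samples varied, which may be technical variation. RNA came from whole dishes, in which fewer cells of a type and less RNA per cell cannot be told apart.

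Each of 4 slides held 1 array of each group, and between 74.1% and 78.1% of probes were well above background on an array. With each group mean subtracted, pairs of arrays from different groups correlated at 0.197 to 0.410 within the set of slides 1 and 3 or of slides 2 and 4, and at −0.389 to −0.200 between the sets, across probes that are not independent replicates. The 15 neuronal markers were all well above background on all 12 arrays, while 5 of 9 measured microglial markers were. No member had a saturated spot, and 69 of 72 members were well above background on all 12 arrays. All levels below are log2 of the background-subtracted signal after quantile normalization, and a level is compared only with the same probe's level on other arrays.

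Most respiratory chain members were slightly lower after silencing than after disinhibition, and COX6A2 was far lower. Between TTX and BC, 58 of 72 members (80.6%) had a log2 fold change below 0, against 45.3% of all genes tested (14 were above 0, against 54.7%). The median over the members was −0.12, and over all genes 0.020. By limma with Benjamini-Hochberg adjustment over all probes, 15 members (20.8%) were lower in TTX at an adjusted p under 0.05, against 12.1% of all genes and 15.7% of genes well above background on all 12 arrays. Just 1 member, NDUFA7, was higher (1.39%, against 11.3% of all genes). When a fold change of at least 1.5 was also asked for, as the study's methods do, only COX6A2 was called lower (1.39%, against 6.19% of all genes) and none higher (4.68% of all genes). The 15 became 25 with the slide as a block and 32 with the slide set as a block, but 8 with scaling to the 75th percentile and 3 after averaging within slide sets. The quartiles of the members' log2 fold changes lay at −0.21 and −0.049.

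**Figure D1:**
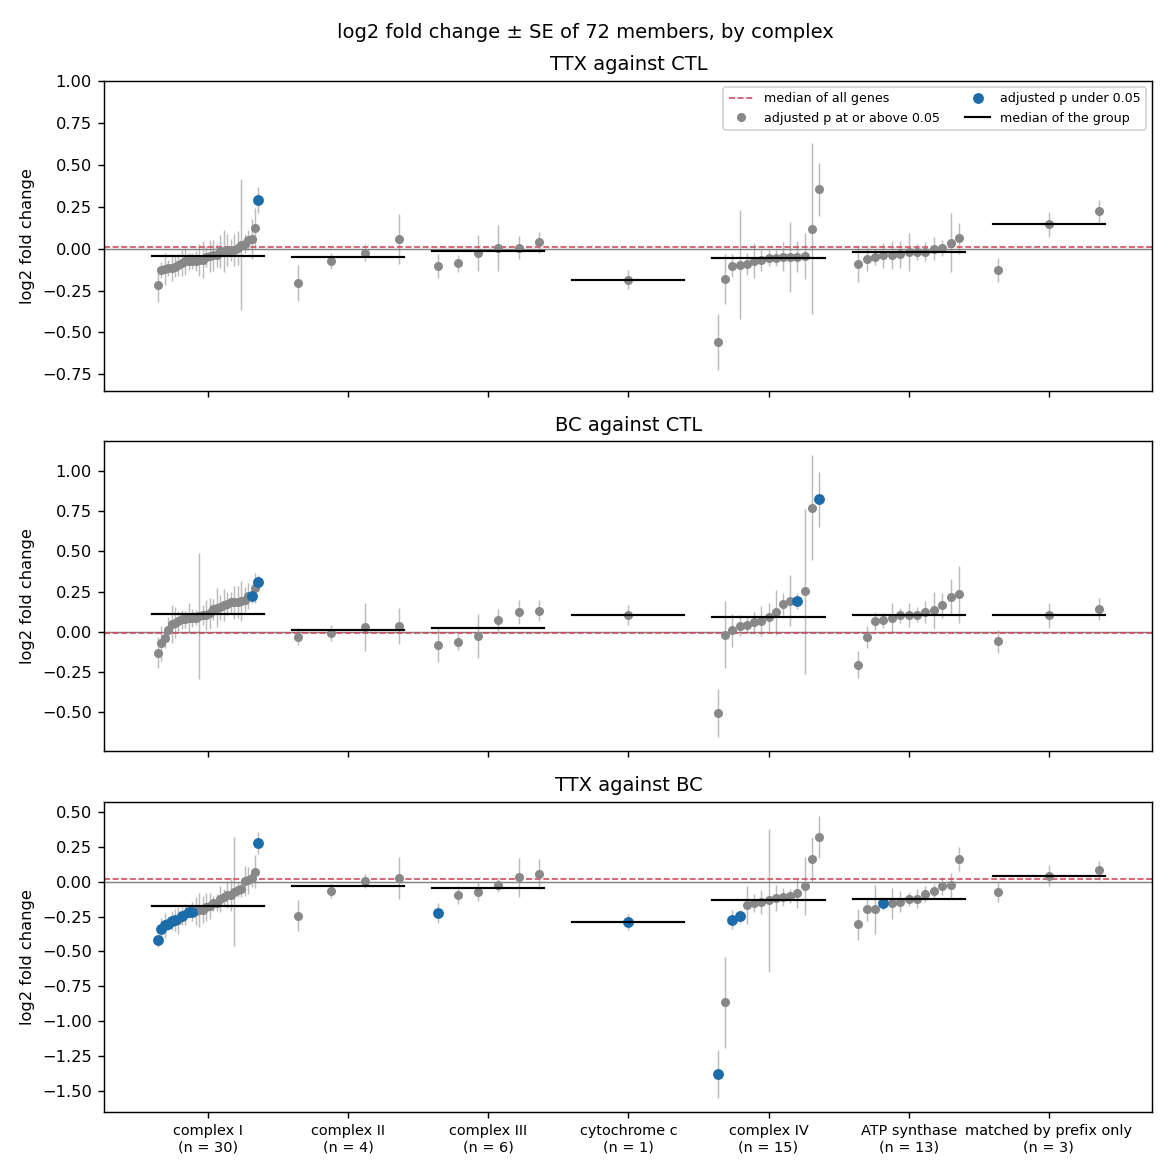
The log2 fold change ± SE (limma) of each of the 72 members is plotted by complex for the 3 comparisons in turn (TTX or BC over CTL, then TTX over BC), with members in order of size within a complex. Blue points had an adjusted p under 0.05 (1, 4 and 16 members), black lines are the medians of each complex and the dashed line is the median of all genes.

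The order of the groups was the same on each slide. Taking each member's level minus its own mean over the 12 arrays, the median over the members was −0.053, −0.098, −0.050 and −0.062 on the TTX arrays of slides 1 to 4. On the CTL arrays of the same slides it was 0.0051, −0.014, −0.033 and −0.016, and on the BC arrays 0.094, 0.059, 0.11 and 0.016. TTX was thus lowest and BC highest on every slide, and the 3 groups did not overlap, although the BC array of slide 4 (BC replicate 1) lay close to CTL. Over all genes the same medians lay between −0.029 and 0.0030 on the 12 arrays. The median difference of members between TTX and BC was −0.14, −0.16, −0.15 and −0.050 on slides 1 to 4. Of the 72 members, 42 (58.3%) were lower in TTX than in BC on all 4 slides, against 21.3% of all genes and 27.2% of those well above background throughout, and 4 were higher on all 4 (24.5% of all genes). In 20 members (27.8%) every TTX array lay below every BC array, against 13.2% of all genes and 17.3% of those well above background, and in 1 (1.39%, against 12.5%) the reverse held. The slide sets differed in size, with a median of −0.16 on slides 1 and 3 and −0.10 on slides 2 and 4.

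**Figure D2:**
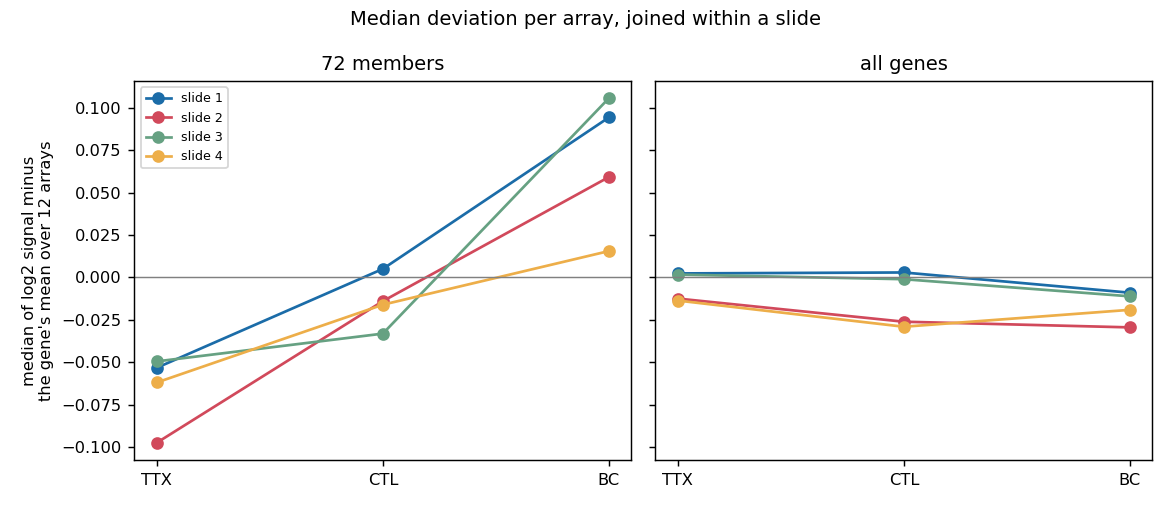
The median over genes of the log2 signal minus each gene's mean over 12 arrays is shown for every array, with arrays of 1 slide joined, for the 72 members (left) and for all genes (right). The members rise from TTX to CTL to BC on all 4 slides, while all genes stay between −0.029 and 0.0030.

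Promoters are shown for 4 members that passed the adjusted p, so that their letters can be read beside the motifs of factors known for this gene family. The letter strings of 4 motifs were searched on both strands from 250 bases before to 50 bases after the start in RefSeq's GRCr8 promoters, of which 59 of the 69 subunit members had one. The NRF1 motif of 10 letters, a palindrome but for its middle, occurred in 23.7% of the 59 and in 4.71% of all 27457 promoters. CCGGAAG, bound by ETS factors such as GABPA, occurred in 28.8% and 9.22%. AAGATGGCG, the YY1 motif, occurred in 15.3% and 1.93%, and TNAAGGTCA, bound by estrogen-related receptors, in 5.08% and 1.15%. In all, 34 of 59 members held a match (57.6%, against 15.4% of all promoters), among them 7 of the 15 with a promoter that passed the adjusted p in any comparison. COX6A2 held none of them, and neither did NDUFV2, CYCS and COX7B, among others, whose promoters are not shown. Those shown beside COX6A2 all hold a match. A match is a description of the letters and not a bound site.

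The promoters lie at chr1:192219667-192219966 on the minus strand (COX6A2), chr5:141264353-141264652 on the minus strand (NDUFS5), chr1:31797150-31797449 on the plus strand (NDUFS6) and chr5:134790833-134791132 on the minus strand (UQCRH), all in GRCr8. Capitals mark the NRF1 motif at −129 in NDUFS5 and −26 in NDUFS6, the YY1 motif at 24 in NDUFS6 and the ETS motif at −83 in UQCRH, each position being the first base of the match from the start.
COX6A2: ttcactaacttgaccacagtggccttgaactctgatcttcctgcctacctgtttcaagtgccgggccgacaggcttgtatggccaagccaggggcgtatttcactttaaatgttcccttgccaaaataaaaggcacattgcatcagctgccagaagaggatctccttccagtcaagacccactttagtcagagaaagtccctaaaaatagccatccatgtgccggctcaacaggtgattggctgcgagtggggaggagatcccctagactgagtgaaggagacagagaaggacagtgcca
NDUFS5: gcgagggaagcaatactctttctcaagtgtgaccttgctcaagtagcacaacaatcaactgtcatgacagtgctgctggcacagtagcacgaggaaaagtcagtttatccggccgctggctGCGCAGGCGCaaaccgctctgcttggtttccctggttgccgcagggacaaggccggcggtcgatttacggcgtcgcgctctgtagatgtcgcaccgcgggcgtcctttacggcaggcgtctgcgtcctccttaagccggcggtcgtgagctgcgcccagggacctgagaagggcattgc
NDUFS6: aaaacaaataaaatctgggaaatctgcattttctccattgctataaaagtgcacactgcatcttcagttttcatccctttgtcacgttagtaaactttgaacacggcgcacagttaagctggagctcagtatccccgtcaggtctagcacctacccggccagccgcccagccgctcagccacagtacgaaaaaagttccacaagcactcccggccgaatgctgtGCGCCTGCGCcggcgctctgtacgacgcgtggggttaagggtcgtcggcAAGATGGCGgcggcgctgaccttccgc
UQCRH: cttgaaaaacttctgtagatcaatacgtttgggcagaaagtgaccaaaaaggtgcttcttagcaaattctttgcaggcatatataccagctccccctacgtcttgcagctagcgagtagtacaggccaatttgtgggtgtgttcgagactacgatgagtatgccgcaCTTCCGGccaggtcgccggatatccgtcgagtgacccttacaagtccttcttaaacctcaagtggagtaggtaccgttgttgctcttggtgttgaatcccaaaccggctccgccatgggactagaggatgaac

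COX6A2 encodes an isoform of subunit VIa of cytochrome oxidase that is typical of heart and skeletal muscle, while COX6A1 encodes the form found in most tissues. Its levels were 9.45, 9.98, 9.66 and 10.23 in TTX, 10.13, 10.44, 10.43 and 10.54 in CTL, and 11.32, 10.99, 11.42 and 11.10 in BC. All BC arrays lay above all other arrays, whereas the highest TTX array overlapped the lowest CTL array. COX6A2 rose 1.77-fold with BC over CTL (log2 fold change 0.82, SE 0.17, limma adjusted p = 0.0131) and was 2.60-fold higher in BC than in TTX (TTX against BC −1.38, SE 0.17, adjusted p = 0.000165). Between TTX and CTL its log2 fold change was −0.56 (SE 0.17) and did not pass (adjusted p = 0.0661). Without TTX replicate 4 it was −0.69 with an adjusted p of 0.0244. That array had the highest TTX level (10.23), so leaving it out lowered the TTX mean. When the 8 TTX and CTL arrays were paired by number it passed too (SE 0.095, adjusted p = 0.0398). This pairing was added after the data were seen, and the number cannot be told apart from the slide set. How COX6A2 fared between TTX and CTL under each of the other alternatives is not given here, so these refits do not replace the main fit. The difference between TTX and BC was −1.44, −0.76, −1.65 and −1.66 on slides 1 to 4. COX6A1 had a log2 fold change of −0.11 between TTX and BC (SE 0.063, limma adjusted p = 0.270). The COX6A2 probe lies at chr1:187464932-187464991 in rn4, the build of the array's annotation.

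Markers of GABAergic interneurons moved on the same arrays as COX6A2. The list had 15 genes, all well above background on all 12 arrays, and its summed signal was 197545 to 218070 in TTX, 380971 to 437250 in CTL and 485492 to 573964 in BC. Of the 15, 10 were called lower and 1 higher in TTX than in BC (6.19% and 4.68% of all genes). Between BC and CTL their median log2 fold change was 0.091, with 10 above 0 and 5 below. Here 2 were called higher and 1 lower (2.14% and 1.47% of all genes). Between TTX and CTL the median over these interneuron markers was −0.67, with 11 below 0 and 4 above. In that comparison 8 were called lower and 1 higher (2.69% and 1.48% of all genes). The part of these cells in the COX6A2 result was not tested. The list of endothelial, mural and fibroblast markers had a summed signal of 10713 to 11993 in TTX, 13694 to 16697 in CTL and 22032 to 29326 in BC. Of its 14 genes, 4 were called lower and 1 higher in TTX than in BC (6.19% and 4.68% of all genes). Its median log2 fold change was −0.0014 between TTX and CTL (7 below 0 and 7 above) and 0.32 between BC and CTL (3 below and 11 above). The part of this list was not tested either. Between TTX and BC, astrocyte markers were neither called lower nor higher (0 of 11 at an adjusted p under 0.05). At an unadjusted p under 0.05, 0 were lower and 2 higher. Their median log2 fold change was 0.23, with 8 above 0 and 3 below. Between TTX and CTL, 1 astrocyte marker was higher at an adjusted p under 0.05 (4.32% of all genes) and 0 lower (5.4%). The summed astrocyte signal overlapped among all 3 groups (115713 to 163896 in TTX, 120624 to 156201 in CTL and 117032 to 143058 in BC). The neuronal list had a summed signal of 752617 to 785353 in TTX, 761515 to 838252 in CTL and 739088 to 777883 in BC. That of the oligodendrocyte lineage was 44403 to 71186, 32611 to 51941 and 38467 to 47117, and that of microglia 552 to 692, 653 to 765 and 557 to 757, in the same order of groups. Between TTX and BC, 0 of 15 neuronal markers were called lower and 2 higher, and 1 of 11 oligodendrocyte markers each way. Over all genes, 6.19% were called lower and 4.68% higher. Of 9 microglial markers, 0 were called in either direction (0 at an unadjusted p under 0.05).

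COX8H, now named COX8B, is the heart and muscle isoform of subunit VIII, and its probes disagreed. Because this was seen only once their values were known, the case lies outside the rule for named genes. The brightest of its 3 probes (mean level 5.20) was made from an expressed sequence tag, and its coordinates run in the opposite order to those of the probe for the COX8H mRNA (mean level 5.18). On the chosen probe the log2 fold change was 0.32 in TTX against BC (SE 0.15, limma adjusted p = 0.164). Between BC and CTL it was −0.50 there (SE 0.15, limma adjusted p = 0.0706), opposite in sign to the mRNA probe. The mRNA probe read 4.35, 4.36, 4.12 and 3.44 in TTX, 4.96, 5.36, 5.11 and 5.12 in CTL, and 5.82, 6.10, 6.86 and 6.60 in BC. Its 3 groups did not overlap, and it was well above background on 11 of 12 arrays, missing 1 TTX array. It was lower in TTX than in CTL (−1.07, SE 0.25, adjusted p = 0.0228), higher in BC than in CTL (1.21, SE 0.25, adjusted p = 0.0142) and lower in TTX than in BC (−2.28, SE 0.25, adjusted p = 8.33e-05). The remaining probe, from the same tag, had a log2 fold change of −0.051 (SE 0.21, adjusted p = 0.932). With the 3 probes averaged, COX8H was called lower in TTX than in BC (−0.67, SE 0.11, adjusted p = 0.0011). The remaining probe and the mRNA probe share 21 bases on opposite strands, shown here because they tell which strand each one reads.
COX8H mRNA probe: CCAGCAGGATGGGTCTTATCC
COX8H tag probe: GGATAAGACCCATCCTGCTGG

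Complex I held most of the members that passed the test. It oxidises NADH through an arm of flavin and iron-sulfur subunits and pumps protons through its membrane arm, around which the accessory subunits sit. In TTX against BC, 9 of 30 subunits were lower and 1 was higher at an adjusted p under 0.05, and the median was −0.18. Over all genes 12.1% were lower and 11.3% higher, and 15.7% were lower among genes well above background on all 12 arrays. NDUFS5B, now named NDUFS5, is an accessory subunit on the intermembrane side. It read 15.33, 15.29, 15.39 and 15.34 in TTX, 15.46, 15.38, 15.48 and 15.48 in CTL, and 15.72, 15.79, 15.77 and 15.76 in BC. BC stood clear of both other groups, while TTX and CTL overlapped. NDUFS5B was higher in BC than in CTL (0.31, SE 0.048, limma adjusted p = 0.0029) and lower in TTX than in BC (−0.42, SE 0.048, adjusted p = 0.000103). NDUFV2, a core iron-sulfur subunit of the NADH-oxidising arm, gave the same picture. Its levels were 16.10, 16.03, 16.12 and 16.06 in TTX, 16.18, 16.15, 16.17 and 16.10 in CTL, and 16.36, 16.40, 16.40 and 16.34 in BC. It was higher in BC than in CTL by 0.22 (SE 0.047, adjusted p = 0.0140) and lower in TTX than in BC (−0.30, SE 0.047, adjusted p = 0.000852).

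The other 7 subunits of complex I that were lower in TTX than in BC were accessory ones. NDUFA1, a small membrane subunit encoded on the X chromosome, read 15.96, 15.90, 16.12 and 16.04 in TTX, 16.11, 15.95, 16.26 and 16.15 in CTL, and 16.28, 16.43, 16.26 and 16.39 in BC. TTX and BC did not overlap, and CTL overlapped TTX. Its log2 fold change between TTX and BC was −0.34 (SE 0.079, limma adjusted p = 0.0099). NDUFV3L (now NDUFV3), NDUFS6 and NDUFA2 followed at −0.31, −0.28 and −0.28, and NDUFB3, NDUFA5 and NDUFB6 at −0.25, −0.22 and −0.21 (adjusted p from 0.0054 to 0.0432). The calls of NDUFB6, NDUFV3L and NDUFA2 were lost under 12, 10 and 9 of 23 alternatives. That of NDUFB3 was lost under 3, and with its 2 probes averaged it differed by −0.060 (limma adjusted p = 0.658). The second NDUFB3 probe had a mean level of 6.29, against 16.26 for the chosen one, and its coordinates run in the opposite order. NDUFB5 lay just outside (−0.23, SE 0.078, adjusted p = 0.0501). Among the core subunits beside NDUFV2, NDUFS1 and NDUFV1 had differences of 0.0092 and 0.0064. NDUFS7, NDUFS8 and NDUFS3 had −0.28, −0.20 and −0.17 and did not pass (limma adjusted p = 0.0641, 0.186 and 0.228). A second, less bright NDUFS8 probe was lower in TTX than in BC (−0.29, SE 0.078, limma adjusted p = 0.0203).

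NDUFA7, an accessory subunit of the peripheral arm, moved the other way. It read 12.70, 12.74, 12.87 and 12.81 in TTX, 12.43, 12.38, 12.53 and 12.62 in CTL, and 12.61, 12.56, 12.48 and 12.36 in BC. Every TTX array lay above every other array, while CTL and BC overlapped. It was higher in TTX than in CTL (0.29, SE 0.076, limma adjusted p = 0.0373) and than in BC (0.28, SE 0.076, adjusted p = 0.0223). Its call against CTL was lost under 13 of 23 alternatives, and its call against BC under 6.

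**Figure D3:**
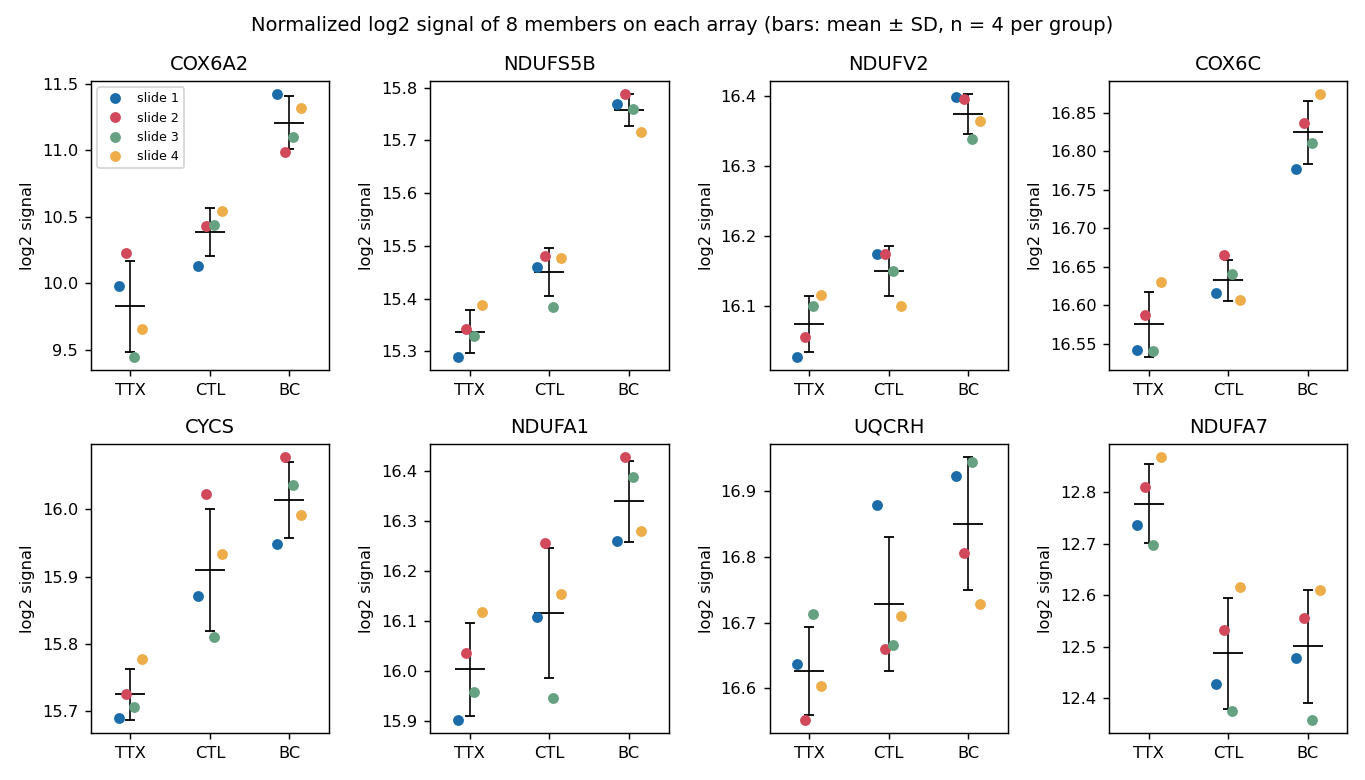
Normalized log2 signal of 8 members on each array, with points coloured by slide and bars for the mean ± SD of the 4 arrays of a group. The BC arrays of COX6A2, NDUFS5B, NDUFV2 and COX6C stand above all TTX and CTL arrays, and the TTX arrays of NDUFA7 above all others. The vertical axes differ between panels.

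Beyond complex I, cytochrome c and complex IV held the members with the smallest adjusted p. CYCS encodes cytochrome c, which shuttles electrons between complexes III and IV and triggers apoptosis when it leaves the mitochondrion. It read 15.71, 15.69, 15.78 and 15.73 in TTX, 15.87, 15.81, 16.02 and 15.93 in CTL, and 15.99, 16.08, 15.95 and 16.04 in BC. TTX lay below both other groups, which overlapped. Its log2 fold change was −0.29 between TTX and BC (SE 0.059, limma adjusted p = 0.0046) and −0.18 between TTX and CTL (adjusted p = 0.0815). Its 2 other probes gave −0.32 (adjusted p = 0.0163) and −0.19 (adjusted p = 0.168) between TTX and BC.

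The median over the 15 complex IV members was −0.13 in TTX against BC, which was the value of COX6C1, a dim member that RefSeq lists as a pseudogene. Of these members, 3 passed as lower, against 12.1% of all genes and 15.7% of those well above background on all 12 arrays. Beside COX6A2 they were COX7B and COX6C, small nuclear-encoded subunits of the oxidase. COX6C read 16.54, 16.54, 16.63 and 16.59 in TTX, 16.62, 16.64, 16.67 and 16.61 in CTL, and 16.87, 16.84, 16.78 and 16.81 in BC. BC was clear of the others, and TTX overlapped CTL. It rose with BC over CTL by 0.19 (SE 0.048, limma adjusted p = 0.0320) and was lower in TTX than in BC (−0.25, SE 0.048, adjusted p = 0.0030), though the call against CTL was lost under 13 of 23 alternatives. COX7B differed by −0.27 between TTX and BC (SE 0.068, adjusted p = 0.0133). The common isoforms COX4I1, COX5A and COX6A1 differed by −0.12, −0.081 and −0.11 and did not pass.

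In complexes II and III only UQCRH passed between TTX and BC. Succinate dehydrogenase, which also serves the citric acid cycle, had a median of −0.030 over its 4 subunits between TTX and BC, and none passed at an adjusted p under 0.05 or an unadjusted p under 0.05. SDHA and SDHD differed by −0.066 and 0.0062, and SDHB by −0.24 (SE 0.11, limma adjusted p = 0.151). In complex III, 1 of 6 passed as lower (against 12.1% of all genes), and the median was −0.048. This was UQCRH, the hinge protein next to cytochrome c1, at −0.22 (SE 0.073, adjusted p = 0.0461). It read 16.71, 16.64, 16.60 and 16.55 in TTX, 16.88, 16.67, 16.66 and 16.71 in CTL, and 16.73, 16.81, 16.92 and 16.95 in BC, so that TTX and BC stood apart by a narrow gap. The call was lost under 13 of 23 alternatives, 9 of which left out 1 array each. With scaling to the 75th percentile UQCRH differed by −0.13 (limma adjusted p = 0.243), beside a median of 0.099 over all genes. The core proteins UQCRC1 and UQCRC2 differed by 0.030 and −0.072, and CYC1 by 0.053. Their SEs were 0.14, 0.069 and 0.11.

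Of the 13 ATP synthase subunits, 12 were below 0 between TTX and BC (against 45.3% of all genes), and the median was −0.12. At an adjusted p under 0.05, 12.1% of all genes were lower. Only ATP5E (now ATP5F1E), the epsilon subunit of the central stalk, passed (−0.16, SE 0.049, limma adjusted p = 0.0395). It read 17.21, 17.16, 17.24 and 17.18 in TTX, 17.18, 17.23, 17.32 and 17.25 in CTL, and 17.35, 17.36, 17.38 and 17.33 in BC. TTX and BC did not overlap, and BC lay above CTL too. The call was lost under 13 of 23 alternatives. With scaling to the 75th percentile the difference was −0.0079 (limma adjusted p = 0.948), beside a median of 0.099 over all genes. The subunits of the catalytic head, ATP5A1 and ATP5B, differed by 0.16 and −0.031 (SE 0.085 and 0.067) and did not pass.

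**Figure D4:**
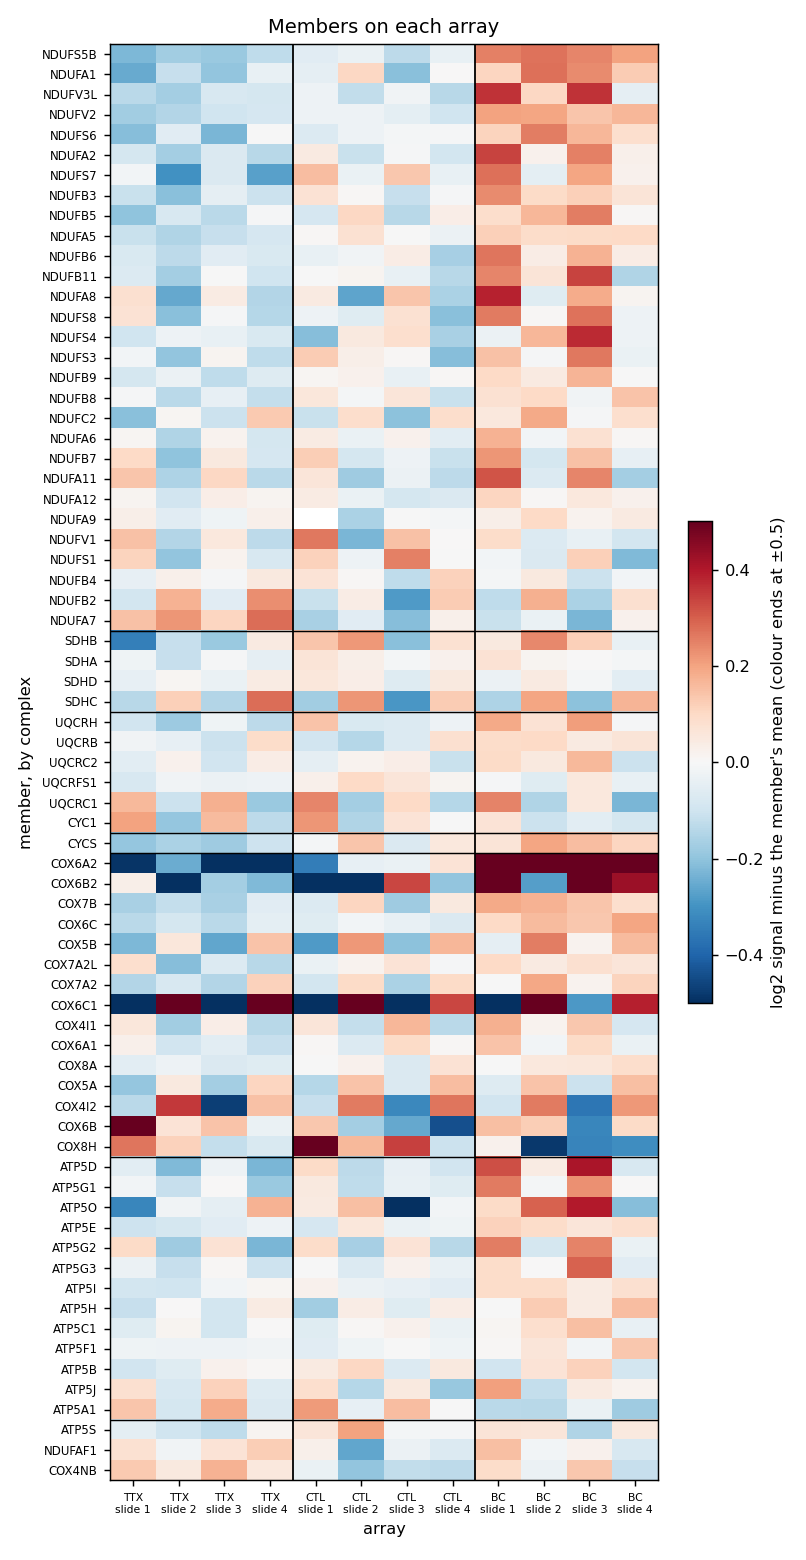
Each row is 1 of 71 members, grouped by complex from complex I (top) to the prefix-only genes (bottom), and each column 1 array, ordered by group and slide. Colour gives the log2 signal minus the member's mean over the arrays, in blue below and red above, with colours ending at ±0.5, and the white cell of NDUFA9 is a spot left out as an outlier. In 42 of the 71 rows TTX is lower than BC on all 4 slides, and in the NDUFA7 row all TTX cells are above all others.

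Against vehicle, COX6A2, NDUFS5B, NDUFV2 and COX6C rose with BC. Between BC and CTL, 59 of 72 members (81.9%) had a log2 fold change above 0, against 47.8% of all genes (13 were below 0, against 52.2%), and the median was 0.10 (−0.0059 over all genes). At an adjusted p under 0.05, 4 members were higher (5.56%, against 4.61% of all genes and 5.91% of those well above background on all arrays) and 0 lower (3.49% of all genes; 2 lower at an unadjusted p under 0.05), a share near that of all genes. With the fold threshold only COX6A2 was called higher (1.39%, against 2.14%) and none lower (1.47% of all genes). The 4 became 8 with the slide and 14 with the slide set as a block, 2 with scaling to the 75th percentile and 0 after averaging within slide sets. In 10 members (13.9%) every BC array lay above every CTL array, against 7.55% of all genes, and in 0 the reverse held (6.04% of all genes). On all 4 slides 32 members were higher (44.4%, against 18.0%) and 4 lower (5.56%, against 17.1%). The median difference was 0.12, 0.071, 0.14 and 0.040 on slides 1 to 4. Complex I had a median of 0.11, complex IV of 0.094 and the ATP synthase of 0.11, while complexes II and III had 0.012 and 0.024.

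Against vehicle, NDUFA7 rose with TTX and no member passed as lower in the main fit, though some alternatives passed members as lower. Between TTX and CTL, 54 of 72 (75%) were below 0, against 46.2% of all genes (18 were above 0, against 53.8%), with a median of −0.046 (0.012 over all genes). With scaling to the 75th percentile the median turned to 0.0014, beside 0.052 over all genes. By limma no member was lower at an adjusted p under 0.05 (5.4% of all genes; 5 members were lower and 3 higher at an unadjusted p under 0.05), and NDUFA7 alone was higher (1.39%, against 4.32%). Paired by number within the TTX and CTL arrays, a fit added after seeing the data, 2 members were lower, COX6A2 and NDUFS7 (−0.22, SE 0.042, adjusted p = 0.0481), and 2 were higher, NDUFA7 and COX4NB (0.22, SE 0.039, adjusted p = 0.0413). None was called with the fold threshold in either direction (2.69% of all genes were called lower and 1.48% higher). TTX lay wholly below CTL in 3 members (4.17%, against 8.05% of all genes) and wholly above it in 2 (2.78%, against 7.45%). On all 4 slides 16 members were lower (22.2%, against 17.5%) and 5 higher (6.94%, against 19.9%). The median was −0.060, −0.077, −0.018 and −0.0069 on slides 1 to 4. TTX against CTL and BC against CTL share the CTL arrays, and their values are given side by side only.

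The medians of the other mitochondrial gene lists lay on both sides of 0. In TTX against BC the median log2 fold change was below 0 for 6 of the 7: the mitochondrial ribosome (−0.036, 63 genes, 6 lower and 6 higher at an adjusted p under 0.05), assembly factors of the complexes (−0.038, 29 genes, 6 and 2), dynamics and import (−0.031, 26 genes, 3 and 4), the citric acid cycle with pyruvate oxidation (−0.10, 26 genes, 8 and 1), carriers and kinases for the exchange of ADP, phosphate and ATP (−0.14, 17 genes, 3 and 2), and antioxidant and uncoupling proteins (−0.23, 12 genes, 5 and 0). The regulators of mitochondrial biogenesis stood at 0.12 (17 genes, 1 and 3). Over all genes, 12.1% were lower and 11.3% higher at an adjusted p under 0.05, the shares beside which all counts in this paragraph stand. PPARGC1A, the coactivator PGC-1alpha, had a log2 fold change of −0.16 (SE 0.098, limma adjusted p = 0.311). Cytosolic ribosomal proteins moved upward, with a median of 0.16 and 31 of 78 higher and 1 lower in TTX than in BC. The lower one was RPL3L, a muscle form of a ribosomal protein, at −0.79.

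**Figure D5:**
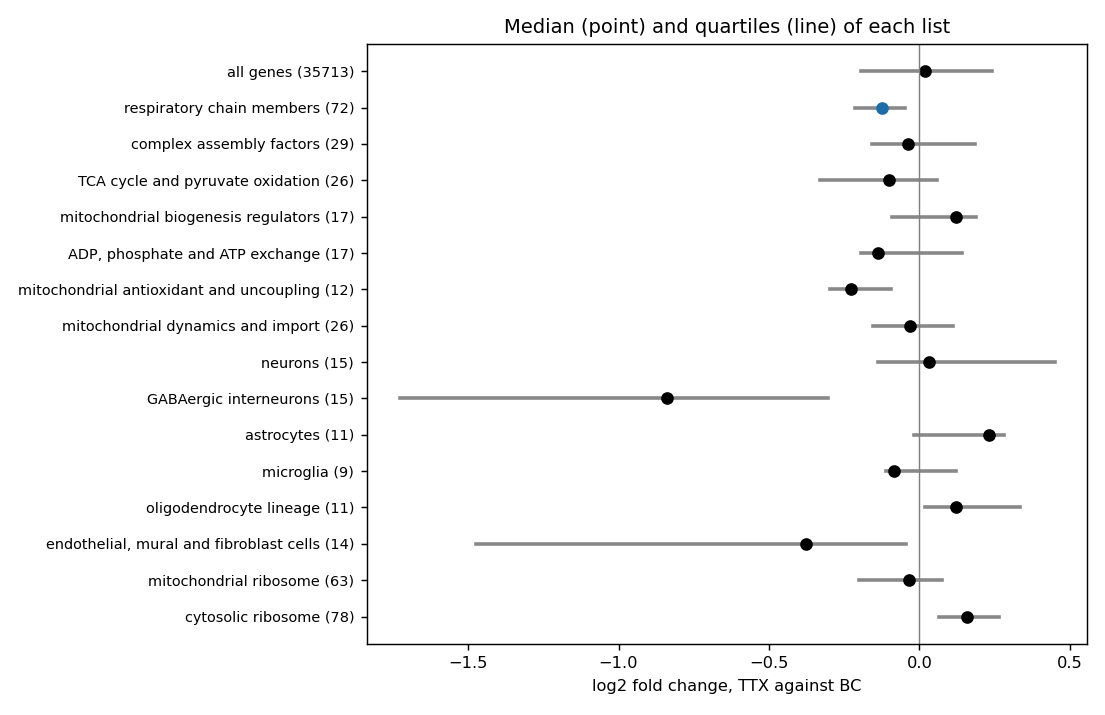
Median log2 fold change of each gene list between TTX and BC, with lines from the first to the last quartile and the number of genes tested in brackets. The respiratory chain members (blue point) have a median of −0.12, all genes 0.020, mitochondrial ribosomal proteins −0.036, cytosolic ribosomal proteins 0.16 and GABAergic interneuron markers −0.84.

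Of the genes on the other mitochondrial lists, 6 were called at the fold threshold between TTX and BC. They were 1 of 29 assembly factors (lower), 2 of 26 genes of the citric acid cycle list (lower), and 2 lower and 1 higher of 17 exchange genes. No gene of the remaining mitochondrial lists was called. Over all genes, 6.19% were called lower and 4.68% higher. NUBPL, which delivers iron-sulfur clusters to complex I, fell with TTX (−0.75, SE 0.11, limma adjusted p = 0.0016) and rose with BC (1.13, SE 0.11, adjusted p = 0.000159). Between TTX and BC it differed by −1.88 (SE 0.11, adjusted p = 9.63e-07). PDK1, a kinase that switches off pyruvate dehydrogenase, fell with TTX (−1.07, SE 0.10, adjusted p = 0.000116) and stood at −0.081 with BC (adjusted p = 0.783); between TTX and BC it differed by −0.99 (adjusted p = 4.39e-05). PC, pyruvate carboxylase, was lower in TTX than in BC (−0.65, SE 0.070, adjusted p = 6.51e-05), as were the citrate carrier SLC25A1 (−0.79, SE 0.17, adjusted p = 0.0052) and the dicarboxylate carrier SLC25A10 (−0.67, SE 0.079, adjusted p = 0.000121). AK4, an adenylate kinase of the matrix, was higher in TTX than in CTL (0.59, SE 0.088, adjusted p = 0.0019) and than in BC (0.83, SE 0.088, adjusted p = 5.97e-05).

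A few members were dim or uncertain. COX6B2, a testis isoform, was well above background on 3 CTL, 3 TTX and 4 BC arrays. It read 4.08, 4.28, 4.03 and 3.33 in TTX, 3.73, 4.59, 3.74 and 4.05 in CTL, and 4.68, 3.98, 5.10 and 5.44 in BC, with overlap, and its difference of −0.87 between TTX and BC had an SE of 0.32 (limma adjusted p = 0.0809). COX6C1, which RefSeq lists as a pseudogene of COX6C and which can share signal with it, was well above background on 3, 3 and 4 arrays and had an SE of 0.51. COX6B was so on 2 CTL, 4 TTX and 3 BC arrays, and the array describes its transcript as similar to a uroplakin, so its identity is unsure. In NDUFA9 a second, dimmer probe was higher in TTX than in BC (0.41, SE 0.072, limma adjusted p = 0.0018), while the chosen one differed by −0.055 (adjusted p = 0.575), with 1 CTL array left out of its fit as an outlier. In COX5B a second probe was lower in TTX than in BC (−0.32, SE 0.086, adjusted p = 0.0187), while the chosen one differed by −0.17 (adjusted p = 0.468). Both genes were singled out after their values were seen. The prefix-only genes NDUFAF1, COX4NB and ATP5S differed by 0.043, 0.081 and −0.071 between TTX and BC, and none passed.

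Current RefSeq names add 4 subunits that the rule did not reach. ATP5MK, on the array as USMG5, was higher in BC than in CTL (0.22, SE 0.054, limma adjusted p = 0.0275) and lower in TTX than in BC (−0.16, SE 0.054, adjusted p = 0.0480). ATP5MG, named MGC72942 there, was lower in TTX than in BC (−0.32, SE 0.069, adjusted p = 0.0067) and had a log2 fold change of 0.25 between BC and CTL (adjusted p = 0.0501). The probes for COX8C and UQCRQ were well above background on 1 and 5 of 12 arrays.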

How the data were processed

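Total RNA of 12 samples, 4 per group, was hybridised to one-colour 4x44K whole rat genome arrays. The deposited scanner files hold spot intensity from Feature Extraction 9.5.1.1, and the processed intensity is background-subtracted and detrended within its array. A deposited table holds the authors' quantile-normalized log2 values, used here as an alternative. Probe positions refer to rn4. Samples were grouped by their labels.

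Processed intensity was log2-transformed and quantile-normalized over the 12 arrays, and spots with outlier marks were left out. All non-control probes entered limma 3.58.1 in R 4.3.3, with 1 mean per group, and p-values were Benjamini-Hochberg adjusted over all of them in each comparison. Genes were counted by their brightest probe. A gene was called by the study's thresholds, an adjusted p below 0.05 with at least a 1.5-fold difference. Counts by adjusted p alone were also made, because respiratory chain shifts can be smaller. The script was tested on simulated data. The number of arrays limits the precision.

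The members and lists were chosen with earlier results of these data known. Named genes were members called in any comparison, the extremes among those past the adjusted p, up to 3 per complex by smallest adjusted p between TTX and BC, dim members, members matched by prefix only, members whose probes disagreed with both past the adjusted p, and called genes of the other lists. Core subunits, common isoforms, NDUFB5 and PPARGC1A were named in addition, after their values were seen. Alternatives were normexp correction (offset 50), median signal, 75th percentile scaling, the deposited log2 values, a filter on dim probes, slide, slide set and replicate blocks, averaged slide sets, fits of 2 groups, averages over a gene's probes, and fits without each array in turn. The labels number the replicates. Same-numbered CTL and TTX arrays deviated together (correlations of 0.279 to 0.377 over 4 pairs, each from 1 set of slides). Differently numbered CTL and TTX arrays of the same slide did so too (0.341 to 0.410), so the number cannot be told apart from the slide set. A fit of the 8 CTL and TTX arrays with the number as a block was added after the data were seen. Numbers did not pair either group with BC (−0.377 to −0.241). Promoters came from RefSeq (GRCr8). For 1 member, which is included in the counts and medians, values of its own are not reported here.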

Additional observations from a re-analysis of the deposited data

How the results depend on the processing

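Each count and median was recomputed under 23 alternatives, 12 of which left out 1 array each, and no direction of a called value reversed. COX6A2, NDUFS5B and NDUFV2 passed between TTX and BC under all 23. Members lower by adjusted p between TTX and BC (15) numbered 8 with 75th percentile scaling, 23 with the deposited values, 25 with the slide and 32 with the slide set as a block, 3 with slide sets averaged, and 10 to 18 without 1 array. Members higher (1) numbered 0 with the deposited values, 3 and 2 with those blocks, and 0 to 1 without 1 array. Members called lower (1) numbered 2 with 75th percentile scaling or either block, in each case by COX6B2, 2 with probes averaged, by COX8H, and 1 to 2 without 1 array, the second being COX6B2 without BC replicate 2 (−1.14, limma adjusted p = 0.0181). The median ranged from −0.14 to −0.12 without 1 array. Between BC and CTL, members higher by adjusted p (4) numbered 2 with 75th percentile scaling, 8 and 14 with the blocks, 0 with slide sets averaged and 3 to 4 without 1 array. Members lower (0) numbered 1 among probes well above background, 2 with either block and 0 to 1 without 1 array. Members called higher (1) numbered 2 with the slide as a block and 0 with slide sets averaged. COX8H was called lower without CTL replicate 4 (−0.62, limma adjusted p = 0.0322) or BC replicate 3 (−0.60, adjusted p = 0.0457), a count of 0 to 1. These calls were on its chosen tag probe, while its mRNA probe was higher in BC than in CTL. The median was 0.15 with the deposited values and 0.090 to 0.11 without 1 array. Between TTX and CTL, members lower by adjusted p (0) numbered 2 with normexp, 1 with the median signal, the deposited values, probes well above background or probes averaged, 2 and 4 with the blocks, and 0 to 1 without 1 array. The member higher (NDUFA7) was lost, a count of 0, with the deposited values, slide sets averaged or 2 groups fitted alone, and without any TTX array, CTL replicate 1, 2 or 3, or BC replicate 2 or 3; it was joined by another, a count of 2, with either block. Members called lower numbered 0 to 1 without 1 array. The median was 0.0014 with 75th percentile scaling and −0.058 to −0.029 without 1 array. The cause of these changes was not tested.

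Same-numbered CTL and TTX arrays, which lie in the same slide set, correlated at 0.279 to 0.377, and same-numbered pairs with BC, which lie in different sets, at −0.377 to −0.241; 2 of 12 arrays correlated best with their own number. With the replicate block on the TTX and CTL arrays alone, added after seeing the data, 2 members were lower and 2 higher by adjusted p. With the replicate block over all 12 arrays, members higher by adjusted p numbered 0 between TTX and CTL, 2 between BC and CTL and 0 between TTX and BC, where 10 were lower. Signal over background limits COX6B2, COX6B and COX6C1, and the 4 arrays per group limit shifts as small as these.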
